A study of Mus musculus with 10 samples.

Results

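Long reads and short reads were set beside each other gene by gene in mature CD4 single-positive (CD4SP) thymocytes, the T cells that have passed selection in the thymus and committed to the helper lineage. The long reads gave a catalogue of transcript isoforms, and the short reads gave a level for each annotated gene. The question was which genes the catalogue holds, by expression level, transcript length and gene class, and with what kind of isoform. The members were chosen by 2 deposited files. A gene had to have at least 1 RefSeq transcript in the short-read file, and it counted as listed when the long-read table assigned at least 1 isoform to it on its own strand. Of 23117 genes with a RefSeq value, 2732 were listed. Of the 7559 genes at 1 FPKM or more, 2258 were listed (29.9%), and this share is the background for every count of listed genes given here.

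The study profiled CD4SP and CD8SP thymocytes of C57BL/6 mice to describe alternative splicing, and the 5 CD4SP samples of its 10 were used here. Mice were 6 to 8 weeks old and carried no stated genetic change, and the thymi of 2 to 3 animals were pooled for each sample. Cells carrying CD8 were removed with beads, and a flow sorter then kept cells positive for CD4 and TCRβ and negative for CD8 and CD24. There was 1 long-read library, sequenced on 1 PacBio cell, and 4 short-read samples whose labels differ only by sequencing lane and whose values are pooled in 1 deposited file. With 1 file of each kind there is no replicate, so no difference given here has a replicate check, no test was run, and intervals of shares are exact (Clopper-Pearson) at the 95% level and cover counting over genes only.

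Long-read cDNA of this kind is copied from the poly(A) tail of an RNA and amplified whole, so that a single read can hold a transcript from its cap to its tail. The short-read libraries were made from total RNA depleted of ribosomal RNA, which keeps RNAs without a tail, and were read as fragments. FPKM is the number of fragments scaled to the length of the transcript and to the size of the library, a level per length, and each deposited FPKM comes with an interval. A full splice match is an isoform whose introns are exactly those of an annotated transcript. An incomplete splice match has a consecutive part of them or is a single-exon piece of a spliced transcript. The annotated transcript need not be the longest of its gene. The catalogue holds no read numbers: its columns for full-length reads and junction coverage are empty, so a gene is either listed or not, and the depth behind an isoform is unknown.

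All 11 CD4SP markers were at 1 FPKM or more, from 9.07 for Zbtb7b, the helper lineage factor ThPOK, to 199 for Cd3g, a chain of the T cell receptor complex, and they summed to 768 FPKM. Markers of the CD8 lineage summed to 52.9 FPKM over 8 genes, led by Cd8b1 at 25.6, and those of immature thymocytes to 37.2 over 7 genes, led by the recombinase gene Rag1 at 12.5. Cd24a, whose protein the sort selected against, stood at 11.8 FPKM and Dntt, the terminal transferase of immature thymocytes, at 10.8. Cd8b1, Rag1, Cd24a and Dntt were thus above the CD4SP marker Zbtb7b. Cd8b1, Rag1 and Cd24a were also above the CD4SP marker Gata3, at 11.6 FPKM. The 6 B cell markers summed to 0.662 FPKM, with Cd79a and Pax5 at 0. Of 8 myeloid markers only Cd74 passed 1 FPKM, at 6.49, and Csf1r was at 0. Of 4 erythroid markers 2 passed, the higher being Hbb-bs at 3.67, with Alas2 at 0, and of 5 stromal markers only Pecam1 passed, at 14.8, with Foxn1 and Col1a1 at 0. In bulk samples such as these, a few cells of another type and a low level in every cell cannot be told apart, and the part of other cells in the results was not tested. Of the 11 CD4SP markers the catalogue listed 4, namely Cd4, Cd3e, Cd5 and Gata3. Those not listed included Cd3g, Zbtb7b, Cd40lg, Il7r, Ccr7 and S1pr1. Cd4 (chromosome 6, 124864693 to 124888247, GRCm38), the coreceptor that binds MHC class II, stood at 107 FPKM and had a full splice match of 10 exons and 3082 bases, against 3108 bases in the annotation.

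What the isoforms look like can be seen at their 3′ ends. The sequences shown are of genomic DNA on the transcript strand, read from the GENCODE M21 transcripts of GRCm38, and the genes were chosen after their values were seen: Cd4 and Ptprc because they carry full splice matches, Actb because it carries both kinds of end, and Foxp1 and Pitpnc1 because most of their many isoforms are single-exon. In the first set, capitals mark the polyadenylation motif AATAAA in the last 30 bases of the isoform, all in the 3′ UTR of the last exon.
Cd4, chr6:124864706-124864735, minus strand: gcttcctgagctgacagaaaAATAAAggct
Ptprc, 30-exon isoform, chr1:138063409-138063438, minus strand: AATAAActttcaactattatcttctttgct
Ptprc, 29-exon isoform, chr1:138063422-138063451, minus strand: tattgataaccatAATAAActttcaactat
Actb, 6-exon isoform, chr5:142903120-142903149, minus strand: accAATAAAagtgcacaccttaccttacac
Pitpnc1, isoform ending 3 bases before the annotated end, chr11:107207895-107207924, minus strand: attctgttgtaAATAAAgtatgaagcaatc
Pitpnc1, isoform ending 599 bases before it, chr11:107208491-107208520, minus strand: aagttgacatgAATAAAgtatattaagctc
Pitpnc1, isoform ending 3543 bases before it, chr11:107211435-107211464, minus strand: aaatttAATAAAgcacccatctgtttgcgt

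In the second set, the 20 bases are those just after the last base of the isoform, and capitals mark runs of at least 4 A. All lie inside the 3′ UTR of the last exon, upstream of the annotated end.
Actb, 5-exon fragment ending 627 bases before the annotated end, chr5:142903722-142903741, minus strand: cagAAAAAAAAAAAAtaaga
Pitpnc1, isoform ending 1641 bases before it, chr11:107209513-107209532, minus strand: gaagAAAAAAAAAAAAgcag
Foxp1, isoform ending 1048 bases before it, chr6:98926366-98926385, minus strand: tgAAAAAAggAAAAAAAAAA
Foxp1, isoform ending 1439 bases before it, chr6:98926757-98926776, minus strand: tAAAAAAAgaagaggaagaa
Foxp1, isoform ending 1761 bases before it, chr6:98927079-98927098, minus strand: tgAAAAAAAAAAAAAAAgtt
Foxp1, isoform ending 1918 bases before it, chr6:98927236-98927255, minus strand: ttAAAAAAAAAAttAAAAAt
Foxp1, isoform ending 3822 bases before it, chr6:98929140-98929159, minus strand: ccAAAAAAAAAAAAAgagaa

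The most abundant genes by FPKM were in part long-read genes with full transcripts and in part genes the catalogue did not hold at all. The 2 highest values belonged to short structural RNAs that carry no poly(A) tail: Rpph1, the RNA of ribonuclease P (chromosome 14, 50807447 to 50807771), at 27578 FPKM over 325 bases, and Rmrp, the RNA of ribonuclease MRP (chromosome 4, 43492785 to 43493059), at 9820 FPKM over 275 bases. Neither was listed. Together they held 29.6% of the FPKM summed over genes at 1 or more, and both lie far above their own deposited intervals, which are 14189 to 14306 and 3867 to 3931, so their levels are uncertain. The nuclear RNA Malat1 (6982 bases) reached 1356.5 FPKM, above its interval of 1044 to 1051, and was not listed either.

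B2m, the light chain of MHC class I (chromosome 2, 122147687 to 122153082), was the highest protein-coding gene at 1970.5 FPKM. Its only isoform was an incomplete match of 3 exons and 487 bases, against 4 exons and 860 bases in the matched transcript. Actb, cytoplasmic actin (chromosome 5, 142903115 to 142907976), stood at 1632 FPKM and had 3 isoforms. They were a full match of 6 exons and 1886 bases, a 5-exon fragment of 1134 bases and a single-exon isoform of 3247 bases. The next genes differed in the same way. Cd52, a short surface glycoprotein gene, at 754 FPKM and 503 bases, and Pfn1, the actin-binding profilin, at 620 FPKM and 870 bases, had no isoform. Tmsb4x, thymosin β4, at 695 FPKM, had 1 incomplete match of 504 bases, and Eef1a1, the translation elongation factor, at 596 FPKM, had 3 multi-exon isoforms, 1 of them a full match of 1563 bases.

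Below these, single genes showed each kind of capture. Ptprc, the phosphatase CD45 (chromosome 1, 138062859 to 138175756), at 232 FPKM, was covered nearly end to end: its 2 full matches had 30 exons over 4684 bases, against 4702 annotated, and 29 exons over 4599 bases, against 4611. Rack1, a ribosome-bound scaffold protein, also had 2 full matches at 229.5 FPKM, and Arhgdib, an inhibitor of small GTPases, had 1 of 1131 bases at 242 FPKM. Ets1, a transcription factor of T cells, reached 261 FPKM but had a single-exon isoform of 3080 bases that ended at the annotated end. The full match of Gimap6, a GTPase of lymphocytes at 192 FPKM, had 2 exons over 3174 bases. Cfl1, the actin-severing cofilin at 242 FPKM, had 1 isoform of 284 bases. The catalogue thus gave an abundant gene anything from a complete transcript of 30 exons to a fragment of 1.

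Among the abundant genes without an isoform were also genes of more than 1000 bases. After Malat1 the highest of them were Gimap4 at 247 FPKM, Cd3g at 199, the replacement histone gene H3f3b at 157, Il2rg, the common cytokine receptor chain, at 144, the ribosomal gene Rplp0 at 128, Pnrc1 at 128, Ly6e at 110 and the survival gene Mcl1 at 105. Ranked by FPKM over protein-coding genes, 15 of the top 25, 53 of the top 100, 248 of the top 500 and 459 of the top 1000 were listed. In the top 100 the 53 listed genes had a median transcript length of 2013 bases and the others 970. Of the 53, 39 had a multi-exon isoform (14.6% of all 7559 genes did) and 16 a multi-exon full match (3.56% of all).

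Weighted by level, the listed genes held 28.9% of the FPKM summed over all genes at 1 or more. This share was 44.7% over protein-coding genes, 48.4% over those of 1000 bases or more and 28.4% over shorter ones. Multi-exon full matches covered genes with 6.47% of the summed FPKM of all genes, and 0.966% of that of the short protein-coding genes.

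The listed share rose with expression from 0.1 to 300 FPKM. It was 2.101% of the 10565 genes at 0 FPKM, 1.02% above 0 and under 0.1, and 10.4% from 0.1 to 1. It then went to 20.5% of 2298 genes between 1 and 3 FPKM (interval 18.9 to 22.3), 28.6% of 3299 between 3 and 10, 41.6% of 1534 between 10 and 30, 47.4% of 350 between 30 and 100 (42.1 to 52.8), and 53.4% of 58 between 100 and 300. At 300 FPKM and more it was 7 of 20, or 35.0% (15.4 to 59.2), an interval that overlaps those of the 3 bands before it. Over protein-coding genes the last 3 bands stood at 48.4%, 59.6% and 63.6%, the last being 7 of 11 genes (30.8 to 89.1). In these 3 bands 107 of 350, 28 of 58 and 14 of 20 genes had an FPKM outside their own summed interval, so the order of single genes at the top is the least certain.

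**Figure D1:**
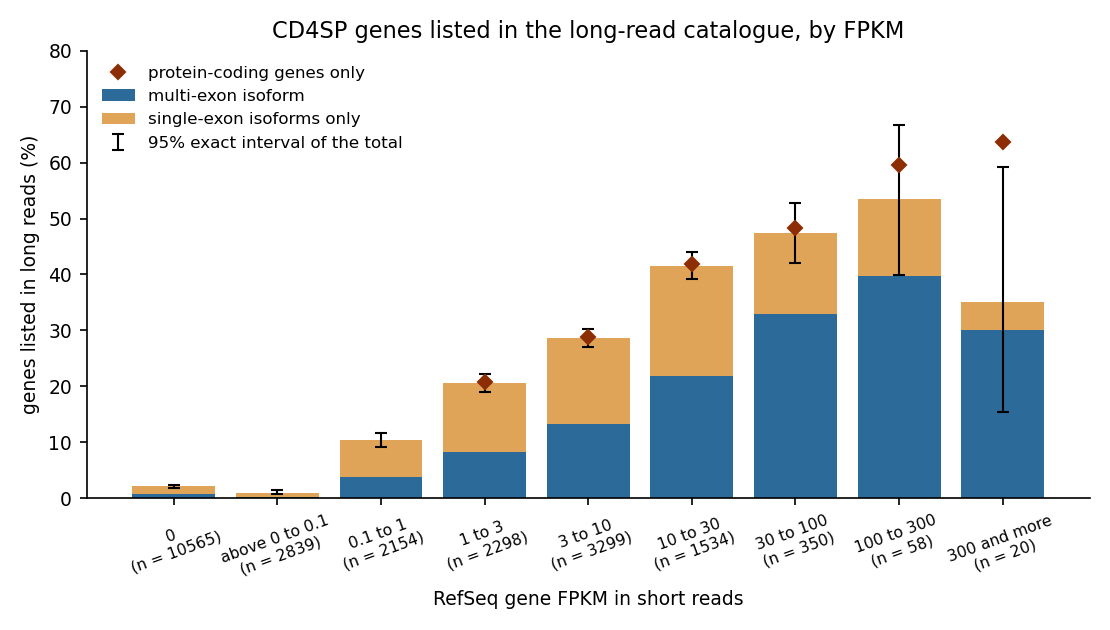
Share of CD4SP genes listed in the long-read catalogue (y axis, percent) by RefSeq gene FPKM band (x axis, with the number of genes). Blue bars are genes with a multi-exon isoform, orange bars genes with single-exon isoforms only, black lines the 95% exact interval of the total, and diamonds the total over protein-coding genes. The total rises from 20.5% between 1 and 3 FPKM to 53.4% between 100 and 300, and the blue part from 8.27% to 39.7%.

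The kind of isoform changed along the same axis. Genes with a multi-exon isoform made up 8.27% of genes between 1 and 3 FPKM, 13.2%, 21.8% and 32.9% in the next bands and 39.7% between 100 and 300. Genes with single-exon isoforms only went from 12.3% to 19.8% between 10 and 30 FPKM and back to 13.8% between 100 and 300. As a result, 59.7% of listed genes rested on single-exon isoforms alone in the lowest of these bands and 25.8% between 100 and 300 FPKM. The share of genes with a multi-exon full match rose from 1.31% to 19.0% over the same range.

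Transcript length gave a second gradient. Of the 119 genes at 1 FPKM or more with transcripts under 500 bases 8.40% were listed, and of the 520 between 500 and 1000 bases 10.2% (7.73 to 13.1). The share then rose through every band, to 24.1% between 1500 and 2000 bases, 33.0% between 3000 and 4000 and 52.9% of 719 genes at 6000 bases and more (49.1 to 56.6). Multi-exon isoforms took part in this from 4.42% between 500 and 1000 bases to 21.1% in the longest band, and genes with single-exon isoforms only went from 5.77% to 31.7%. FPKM and length were nearly unrelated across the 7559 genes (Spearman correlation across genes -0.08, a description). In the highest bands transcripts were shorter, however. The median length was 2839 bases between 1 and 3 FPKM, 1604.5 between 100 and 300 and 485.5 at 300 and more. At matched FPKM, the share at 6000 bases and more exceeded that at 500 to 1000 bases by 46.7 percentage points. In transcripts under 500 bases the rise with FPKM did not go on above 30 FPKM. There 0 of 10 genes were listed between 1 and 3 FPKM, 3 of 26 between 3 and 10 and 5 of 40 between 10 and 30. Above that 0 of 23 were listed between 30 and 100 FPKM, and 1 of 10 in each of the 2 bands above. Between 500 and 1000 bases the share rose up to 100 FPKM, from 4 of 109 genes to 17 of 197, 19 of 151 and 10 of 47. It was 1 of 11 between 100 and 300 FPKM and 2 of 5 at 300 and more. Among protein-coding genes at 30 FPKM and more, 189 of 320 were listed at 1000 bases or more (59.1%, interval 53.5 to 64.5) and 15 of 86 below that length (17.4%, 10.1 to 27.1).

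**Figure D2:**
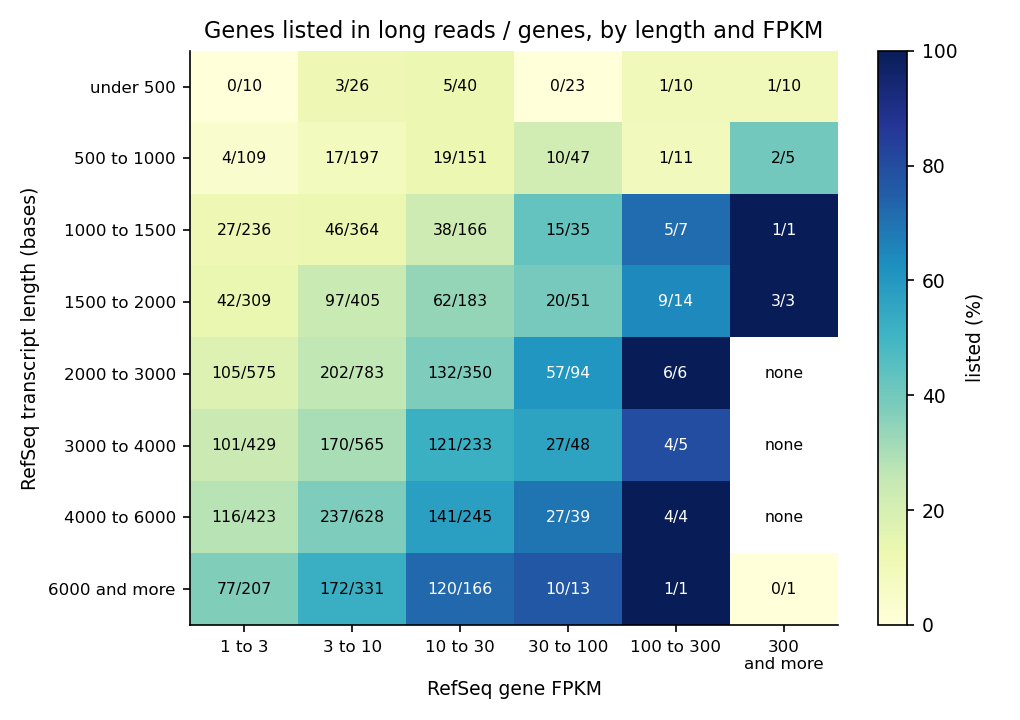
Listed share (colour, percent) of genes by RefSeq transcript length (rows, bases) and RefSeq gene FPKM (columns), with the number of listed genes over all genes in each field. Between 1 and 3 FPKM the share goes from 4 of 109 genes at 500 to 1000 bases to 77 of 207 at 6000 bases and more, and between 10 and 30 FPKM from 19 of 151 to 120 of 166. The 1 gene in the bottom right field is Malat1, which was not listed.

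The isoforms themselves spanned a narrow range of lengths. The 5799 sense isoforms had a median of 2867 bases, with 5% below 1221 and 5% above 5023, and 180 of them (3.10%) were under 1000 bases. Isoforms matched to short annotated transcripts were not short themselves. The 263 multi-exon full or incomplete matches to annotated transcripts of under 1000 bases had a median length of 2814 bases, while the 105 matches to transcripts of 6000 bases and more had a median of 3162. Over all multi-exon full matches (397 isoforms of 312 genes), the isoform was 100.9% as long as its annotated transcript in the median, with quartiles of 86.3% and 279%. All 1438 incomplete matches, of which 401 were single-exon, reached 78.8% in the median. Cd3e, another chain of the T cell receptor complex, illustrates the long side: its full match of 4 exons had 2974 bases where the matched transcript has 517.

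Among the 1434 multi-exon full or incomplete matches, 27.7% were full. This share fell from 45.6% for annotated transcripts under 1000 bases to 18.1% for those of 6000 bases and more. Only 118 of the 1434 (8.23%) began within 50 bases of the annotated start, and 653 (45.5%) ended within 50 bases of the annotated end. More of these isoforms thus ended than began near the annotation.

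Genomic span, the distance a gene covers with its introns, divided the isoforms by kind. The listed share rose from 9.08% of 1013 genes under 5 kb to 23.02% between 10 and 20 kb, 34.2% between 20 and 50 kb, 45.5% between 50 and 100 kb and 57.3% of 698 genes at 100 kb and more. Genes with a multi-exon isoform rose only to 18.4% between 20 and 50 kb and then stayed level, at 18.9% and 17.6%. Genes with single-exon isoforms only went on from 15.9% to 26.6% and 39.7%. The share with a multi-exon full match was 4.24% between 10 and 20 kb and 2.87% at 100 kb and more. Listed genes had a median span of 36508 bases against 16609 for the others, and 28893 where they had a multi-exon isoform against 48195 where they had single-exon isoforms only. Span and transcript length are related (Spearman correlation 0.62 across 7559 genes, a description). Within a single length band, 2000 to 3000 bases, the share with single-exon isoforms only still went from 5.48% of 146 genes under 5 kb to 34.1% of 85 genes at 100 kb and more.

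**Figure D3:**
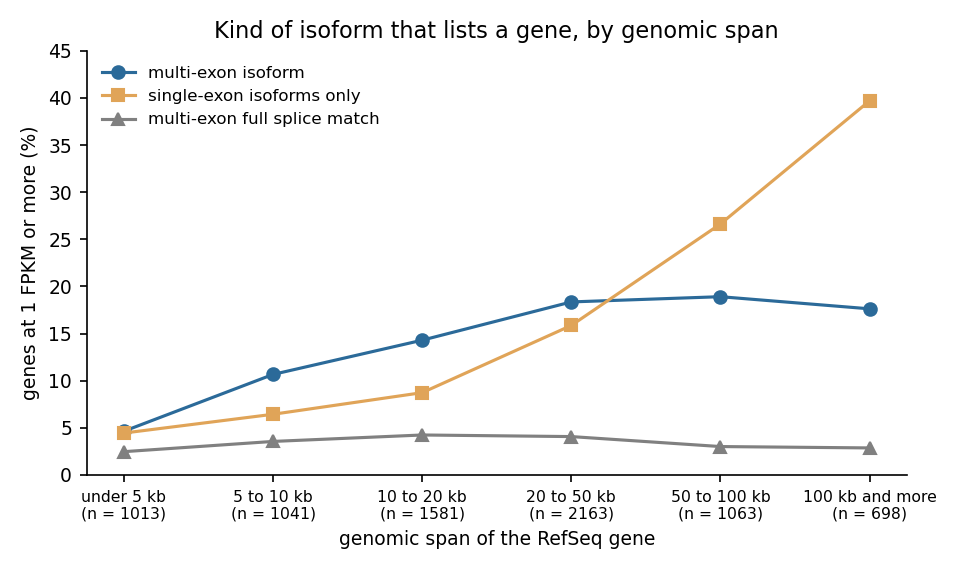
Share of genes at 1 FPKM or more (y axis, percent) with a multi-exon isoform (circles), with single-exon isoforms only (squares) and with a multi-exon full splice match (triangles), by genomic span of the RefSeq gene (x axis, kb, with the number of genes). The multi-exon line is flat from 20 kb on, between 17.6% and 18.9%, while the single-exon line goes from 15.9% to 39.7%.

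Single-exon isoforms made up 56.7% of the sense isoforms (3290 of 5799). The largest kind, 1983 isoforms, were unspliced stretches inside a gene that match no annotated transcript, and 359 more were classed as keeping an intron. A further 401 were single-exon pieces of an annotated spliced transcript, 255 matched single-exon transcripts, and 292 overlapped a gene without such a match. These kinds differed in what follows them in the genome. The deposited table gives the percent of A in the 20 genomic bases after each isoform, a value used to screen for cDNA primed on an A stretch inside an RNA in place of its tail. At least 60% A followed 76.1% of single-exon and 19.1% of multi-exon isoforms. The share was 89.6% in the 1983 unspliced stretches, 70.2% in the 359 with a kept intron and 16.7% in the 401 pieces. It was 78.0% in the 255 matches to single-exon transcripts, 71.6% in the 292 without such a match and 9.32% in the multi-exon full matches. Whether such isoforms began on an internal A stretch was not tested. Genes with at least 1 isoform followed by under 60% A numbered 1393, or 18.4% of the 7559.

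The ends could be placed for 2082 full or incomplete matches whose annotated transcript is in GENCODE M21. Of these, 1003 (48.2%) ended within 50 bases of the annotated end, 661 (31.7%) ended earlier and 418 (20.1%) ran past it. Where the sequence could be read, the motifs AATAAA or ATTAAA were searched on the transcript strand only in the last 40 bases, and again, as a background, 81 to 120 bases before the end. Of 839 isoforms at the annotated end, 665 (79.3%) held a motif in the last 40 bases and 32 (3.81%) in the background window. Of 371 isoforms that ended earlier with under 60% A after them, 264 (71.2%) did, against 17 (4.58%). Of 143 that ended earlier before 60% A or more, 15 (10.5%) did, against 5 (3.50%). A match is a description of these letters and not of a cleavage site.

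**Figure D4:**
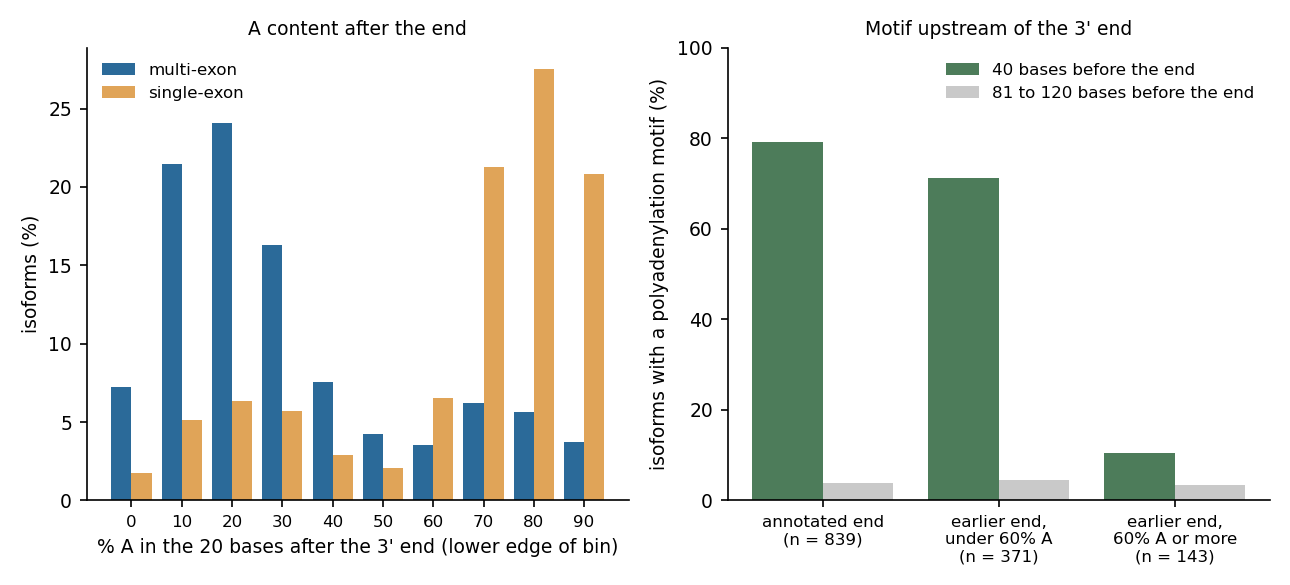
Left, share of multi-exon (blue) and single-exon (orange) isoforms (y axis, percent) by the percent of A in the 20 bases after the 3′ end (x axis, lower edge of each bin). Right, share of isoforms with AATAAA or ATTAAA (y axis, percent) in the last 40 bases (green) and 81 to 120 bases before the end (grey), by kind of end (x axis). The green bars stand at 79.3%, 71.2% and 10.5%.

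The genes with most isoforms show both kinds of end. Listed genes at 1 FPKM or more had 1 isoform in 54.1% of cases, 2 in 22.8% and more than 10 in 20 genes. The number of isoforms was only weakly related to FPKM (Spearman correlation 0.15 across 2258 genes) and to span (0.15). Arhgef1, a guanine nucleotide exchange factor (chromosome 7, 24902986 to 24926594), led with 43 isoforms at 26.7 FPKM. All 43 were multi-exon, between 3152 and 5839 bases, and none was followed by 60% A or more. Of them 37 were classed as keeping an intron, 13 had an unannotated splice site and none was a full match.

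Ppp2r5c, a regulatory subunit of protein phosphatase 2A, had 33 isoforms at 33.0 FPKM, and 14 of the 33 were full matches. Mbnl1, a splicing regulator, had 21, of which 17 were multi-exon, and Smc4, a condensin subunit, had 20. Smc4 stood at 55.6 FPKM and Mbnl1 at 139.

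In Pitpnc1 and Foxp1 most isoforms were single-exon, and most were followed by 60% A or more. Pitpnc1, a phosphatidylinositol transfer protein gene (chromosome 11, 107207892 to 107470720), had 20 isoforms at 7.98 FPKM, all single-exon, and 15 of them were followed by 60% A or more. Of its isoforms, 6 lay within the last exon. They include the ends printed above at 3, 599 and 3543 bases before the annotated end, each with AATAAA upstream and at most 25% A after it, and the end at 1641 bases, which has 75% A after it and no AATAAA in its last 30 bases. The other 2, at 957 and 1778 bases before the annotated end, had 30% and 15% A after them and no AATAAA in their last 30 bases either. Foxp1, a transcription factor that maintains resting T cells (chromosome 6, 98925342 to 99522746), had 17 isoforms at 24.6 FPKM. Of these 14 were single-exon and 15 were followed by 60% A or more, among them all 5 last-exon ends printed above.

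Gene classes differed beyond their level and length in some cases. For each list of genes, the listed share of its members at 1 FPKM or more is given beside the share that all genes have in the same bands of FPKM and transcript length. That comparison share is a description and contains the members themselves. Genes of the T cell receptor complex and its proximal signalling were listed in 31 of 50 cases (62.0%, interval 47.2 to 75.4). The comparison share was 47.8% for genes of like level and length and 54.3% at like FPKM and span, both inside the interval. Of the 31, 18 had a multi-exon isoform and 9 a multi-exon full match. Ptprc and Cd2, an adhesion receptor at 161 FPKM, were listed. Cd3g, Ptprcap, which binds CD45, at 127 FPKM, and Lat, the adaptor that links the receptor to its signalling complex, at 85.7 FPKM, were not. T lineage transcription factors were listed in 26 of 47 cases (55.3%, against 50.3%). Of the 26, 14 had single-exon isoforms only. The other 12 had a multi-exon isoform, 25.5% of the 47 against 28.5% at like level and length. Lef1, at 189 FPKM, had 3 single-exon isoforms, and Satb1, at 169 FPKM, had 15 isoforms of which 8 were multi-exon. Cbfb at 49.8 FPKM and Foxo1 at 32.2 were not listed.

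For 4 lists of receptors, adhesion molecules and immune GTPases the listed share was smaller than the comparison share, by less than counting error. Chemokine, lysolipid and purine receptors were listed in 3 of 23 cases (13.04%, against 31.8%), with Ccr7, which guides T cells to lymph nodes, at 66.5 FPKM, and S1pr1, which guides exit from the thymus, at 61.1 FPKM, both unlisted. Ccr9, the receptor for a thymic chemokine, was listed at 46.9 FPKM with a full match. Cytokine receptors, JAKs and SOCS genes were listed in 8 of 27 cases (29.6%, against 39.8%). Jak1 was listed at 59.0 FPKM, and Il7r at 51.3 and Tgfbr2 at 38.3 were not. Integrins and adhesion molecules were listed in 12 of 41 cases (29.3%, against 37.9%). Gimap GTPases were listed in 2 of 8 (25%, against 47.7%), by Gimap6 and Gimap3. All 4 of these comparison shares lie inside the exact interval of the list.

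Chromatin and DNA methylation regulators had the highest listed share of the lists with more than 1 gene: 47 of 64 (73.4%, interval 60.9 to 83.7), against 52.3% at like FPKM and length and 51.1% at like FPKM and span. They are long genes, with a median span of 68.7 kb, and only 1 had a multi-exon full match, while 24 had a multi-exon isoform and 23 single-exon isoforms only. Ncor1, a corepressor subunit at 32.9 FPKM, had 1 single-exon isoform of 1136 bases. Stag2, a cohesin subunit at 33.0 FPKM, and Suz12, a Polycomb subunit at 16.1 FPKM, had none. Actin cytoskeleton genes were listed in 40 of 68 cases (58.8%, interval 46.2 to 70.6, against 46.7%), 29 of them with a multi-exon isoform.

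For 5 lists of RNA, protein and energy metabolism the comparison share lay inside the exact interval. Splicing factors were listed in 41 of 95 cases (43.2%, against 41.7%), with Ddx5, an RNA helicase, at 147 FPKM, and Mbnl1 listed, and Hnrnpu at 80.8, Ptbp1 at 52.4 and Srsf1 at 51.1 unlisted. Translation factors were listed in 23 of 58 cases (39.7%, against 31.2%). Cytosolic ribosomal proteins were listed in 11 of 58 cases (19.0%, against 18.9%). Ribosomal genes have near-identical processed copies, and whether reads were split between them was not tested, so their FPKM is uncertain. Proteasome subunits were listed in 9 of 37 (24.3%, against 23.9%) and subunits of the respiratory chain and ATP synthase in 16 of 75 (21.3%, against 17.7%). These last 3 lists are short-transcript genes: set against all genes of like FPKM alone, the comparison shares are 39.4%, 37.2% and 38.4%, and each list then lies below them. In bands of FPKM and span the comparison shares of the respiratory chain and the proteasome are 23.9% and 28.6%, again above the listed shares.

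Of the lists with at least 5 genes at 1 FPKM or more, 2 had no listed member. None of the 51 replication-dependent histone genes at 1 FPKM or more was listed (upper bound of the interval 6.98%), against 12.8% for genes of like level and length. Their median length was 473 bases and their median span 0.473 kb, and the bands do not match on exon number. Of all 219 single-exon RefSeq genes 5.02% were listed, and of the 155 protein-coding ones among them 7.10%. The mRNAs of replication-dependent histone genes end in a stem-loop and not in a poly(A) tail. The parts of exon number and of the missing tail were not tested. The highest were H4c4 at 118 FPKM, H2bc18 at 111 and H4c14 at 107, all above their deposited intervals, and sharing of reads between the near-identical copies of this family was not tested. Of the replacement histone genes, 3 of 7 were listed (42.9%, interval 9.90 to 81.6, against 37.0%). The highest, H3f3b at 157 FPKM, was not, and the 2 isoforms of H3f3a, at 57.6 FPKM, were followed by 85% and 95% A. Mitochondrial ribosomal proteins were listed in 6 of 71 cases (8.45%, interval 3.16 to 17.5, against 15.2%). None of the 7 subunits of the CCT chaperonin, which folds actin and tubulin, was listed, with Cct5 at 35.1, Tcp1 at 30.1 and Cct6a at 29.4 FPKM, against a comparison share of 38.0% and an interval that reaches 41.0%. The Zfp zinc finger genes were listed in 36 of 184 cases (19.6%, interval 14.1 to 26.0), against 29.8% at like FPKM and length and 22.3% at like FPKM and span. Zfp207 was listed at 44.1 FPKM, and Zfp36l2 at 43.4, Zfp36 at 33.0 and Zfp36l1 at 28.7, which destabilise mRNAs, were not.

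**Figure D5:**
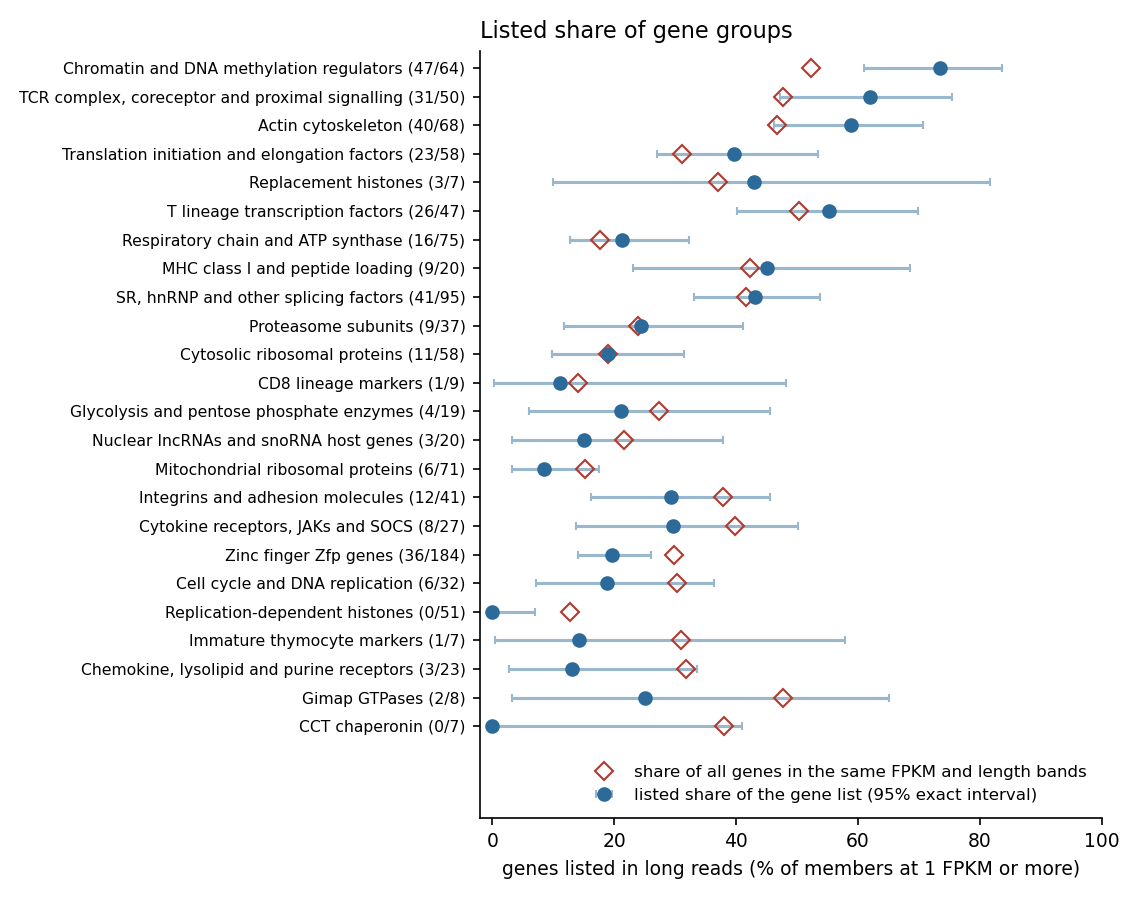
Listed share of each gene list (points, percent of its members at 1 FPKM or more, with the 95% exact interval) beside the share of all genes in the same FPKM and length bands (open diamonds). Lists are ordered by the difference, and the numbers in brackets are listed genes over genes at 1 FPKM or more. The comparison share lies below the interval for the chromatin regulators (73.4% against 52.3%) and above it for the Zfp genes (19.6% against 29.8%) and the replication-dependent histones (0 against 12.8%). For the other lists it lies inside the interval. The bands do not match genes on exon number or genomic span.

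Other lists had values as follows. Genes for MHC class I and peptide loading were listed in 9 of 20 cases (45%, against 42.2%). H2-K1, a classical class I heavy chain at 211 FPKM, had 14 isoforms, 13 of them multi-exon and 3 full matches, and none was followed by 60% A or more. The full matches were to annotated transcripts of 2, 3 and 4 exons. Matches to the H2-K1 transcripts of 7 or 8 exons were incomplete. Similar class I genes lie in the same locus, and sharing of reads between them was not tested. Calr, a chaperone of class I loading, at 85.4 FPKM, was not listed. Cell cycle and replication genes were listed in 6 of 32 cases (18.8%, against 30.2%). Cdkn1b at 34.1 FPKM, Cdk4 at 25.4 and Stmn1 at 19.0 were unlisted, and Ccnd3, a cyclin at 27.0 FPKM, had 9 isoforms of which 8 were single-exon. Glycolysis and pentose phosphate enzymes were listed in 4 of 19 (21.1%, against 27.4%), by genes that include Pkm at 65.6 FPKM and Ldha at 43.9. Pkm had a full match of 11 exons and 2224 bases, against 2432 annotated. The full match of Ldha was to an annotated transcript of 4 exons and 645 bases. Ldha isoforms matched to its transcript of 8 exons and 1766 bases were incomplete. Gapdh, named here after its value was seen, stood at 1.13 FPKM and was not listed. Processed copies of this gene could share reads with it, which was not tested.

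By RefSeq type, 2244 of 7417 protein-coding genes at 1 FPKM or more were listed (30.3%), against 11 of 80 long noncoding RNAs (13.8%), 3 of 36 transcribed pseudogenes (8.33%) and none of 26 small structural RNAs. These shares were not set against genes of like level and length. The medians were 5.06 FPKM and 2775 bases for protein-coding genes, 3.04 and 1526.5 for long noncoding RNAs and 3.35 and 1205 for pseudogenes. Nuclear long noncoding RNAs and snoRNA host genes were listed in 3 of 20 cases (15%, against 21.6%). Of 219 genes whose RefSeq transcripts have a single exon 11 were listed, all of them protein-coding.

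In wider lists of markers, 9 of 15 CD8 lineage genes and 7 of 10 immature thymocyte genes were at 1 FPKM or more. Of B cell markers 0 of 10 were, of myeloid and dendritic 1 of 14, of erythroid 2 of 7 and of stromal 1 of 10. Of the 9 CD8 lineage genes 1 was listed (11.1%, against 14.1% for genes of like FPKM and length). Of the 7 immature thymocyte genes 1 was (14.3%, against 30.9%). The CD8 lineage gene was Runx3, at 1.53 FPKM, with a full match of 6 exons and 2842 bases. Pecam1, the stromal marker above 1 FPKM, is also found on naive T cells. It had 4 isoforms, all single-exon and each followed by at least 75% A.

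Genes that the short reads put at or near 0 were listed too. There were 222 listed genes at 0 FPKM and 29 above 0 and under 0.1. Of the 222, 76 had a multi-exon isoform, 17 a multi-exon full match and 146 single-exon isoforms only. A gene listed at 0 in the short-read file need not be unexpressed, since the estimate can fail. For 103 of the 222 (46.4%), spliced transcripts assembled by the authors at the same introns reached 1 FPKM or more, against 392 of the 10343 unlisted genes at 0 (3.79%). Xpo7, a nuclear export receptor, had 6 isoforms and an assembled level of 11.6 FPKM. All 6 were single-exon and each was followed by at least 70% A. Thrap3, a splicing and Mediator-associated protein gene, had 5 isoforms, 3 of them full matches, and an assembled level of 18.9 FPKM. The full matches of Thrap3 were to annotated transcripts of 2 or 3 exons. Exoc4, an exocyst subunit, had 5 isoforms and an assembled level of 17.3 FPKM. All 5 were single-exon, with 70% to 90% A after 4 of them and 30% after 1. Hmgb1, an abundant chromatin protein, had 5 isoforms and 2 full matches, of 2237 and 1237 bases, and was at 0 in both kinds of short-read transcript. Brd2, a bromodomain protein, and Nfs1, a cysteine desulfurase, had 4 isoforms each and were likewise at 0 in both.

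The lowest values above 0 with a multi-exon full match were those of Ngb, neuroglobin, at 0.0157 FPKM, Zmat1 at 0.0225, Hexim2 at 0.0449 and Tango2 at 0.0788. The isoform of Ngb had 4 exons and 2529 bases, against 1616 annotated. These genes have short-read values close to 0 and at least 1 isoform each, and the number of long reads behind it is not known.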

How the data were processed

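RNA of sorted CD4SP thymocytes was measured by 1 PacBio library and by Illumina short reads. Cufflinks 2.1.1, TopHat2 2.0.14, RSEM 1.3.1, GSNAP, Trimmomatic and FastQC were used on GRCm38 per the submitters' processing notes, which assign no roles. Not given in the sources used here are the long-read classification tool and the number of reads, so depth is unknown. Short-read FPKM values with intervals were deposited by the authors per transcript in 1 file pooling the lanes, and per the file headers were written by Cufflinks. The deposited long-read table gives each isoform's category, length and percent of A after its end, per the file headers.

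Gene FPKM was the sum over RefSeq transcripts. Of 30589 transcripts, 30004 were named through the RefSeq table of GRCm38.p6, 183 through GENCODE M21 and 402 not at all. The FPKM of 4.92% of named transcripts lies outside its own interval, as does the sum of 1283 of the 7559 genes at 1 FPKM or more, so intervals are an incomplete error. Length is the FPKM-weighted mean RefSeq transcript length. Antisense and intergenic isoforms were left out, and 7 isoforms joining 2 genes counted for both.

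Named genes were the 25 highest of at least 300 bases, the 15 highest unlisted (once over all lengths, once at 1000 bases or more), the 10 with most isoforms, the 10 at 0 FPKM with most, the 10 lowest with a full match, and per list the 3 highest and 3 highest unlisted. Some of the genes so chosen are not reported here. Members and lists were chosen with earlier results of these data known. Python 3.11.15, numpy 2.4.6, pandas 2.3.3, scipy 1.17.1 and matplotlib 3.10.9 were used, and the listing and banding were tested on simulated data. Alternatives covered the FPKM minimum, the isoform kinds that count, the FPKM sum and the bands.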

Additional observations from a re-analysis of the deposited data

Results flagged for a closer look

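The long-read table held 2172 antisense isoforms, which overlap a gene on its other strand and were left out of the listing, and the series has no control sample to set this number against. It also held 318 isoforms outside annotated genes. Among the genes with sense isoforms, 300 had no RefSeq value in the short-read file and entered no share: 250 of them have Gm or Rik names, and 5 are mitochondrially encoded (mt-Co1, mt-Cytb, mt-Nd4, mt-Nd5 and mt-Rnr2).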

How the results depend on the processing

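The listed share of 29.9% was 28.3% at a minimum of 0.5 FPKM and 37.0% at 5. It was 14.6% with multi-exon isoforms only, 15.3% with full or incomplete matches only, 18.4% without isoforms followed by 60% A or more and 27.9% with assembled spliced transcripts added. Under the same last 4 settings the share of summed FPKM, 28.9%, was 18.9%, 20%, 21.2% and 32.4%. It was 35.7% with lower interval bounds, 37.6% without transcripts outside their interval and 45.6% over protein-coding genes of 500 bases or more. The difference between the highest and the 1 to 3 FPKM band, 14.5 points, was between 10.6 (highest RefSeq transcript only) and 26.3 (full or incomplete matches only) under the other alternatives, 23.5 with assembled transcripts added, 45.7 over those protein-coding genes, and turned to -3.91 without transcripts outside their interval, where 6 genes remained in the highest band and 1 was listed. The share of listed genes with a full match, 15.2%, was 12% with multi-exon full matches only. The 251 listed genes under 0.1 FPKM became 82, 69, 113 and 94 under the same 4 settings and 665 without transcripts outside their interval, alternatives chosen after seeing the data, as was the use of FPKM and span bands. Against genes of like FPKM alone, the difference of 0.0290 points for cytosolic ribosomal proteins turned to -20.4, that of 3.59 for the respiratory chain to -17.0 and that of 0.390 for the proteasome to -12.9. With FPKM and span the last 2 were -2.58 and -4.23. The cause was not tested, beyond the smaller sets that each setting leaves. No paired analysis was possible because there is 1 file of each kind, and for the same reason no replicate could be left out. Unknown depth limits every statement on unlisted genes: an unlisted gene is not shown to be absent.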
